A study of Homo sapiens with 118 samples.

Results

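The genes CCK, CGA, CALB1, CLC, GPR50, MYOZ2, LYZL4, PRR20G, CPA4 and C15orf48 were followed in HepaRG cells exposed to histone deacetylase inhibitors. They are 10 of 19470 gene symbols and are measured by 11 of 22068 probe rows, since CCK has 2 probes. They had been selected on these data, as genes with few counts at the lowest concentration that stood much higher at the top concentration. Their levels and rises across concentrations are therefore given as a description. Where statistics of a rise are printed, they mark where the increase lay and are no test of it. Falls between neighbouring concentrations carry p-values as a description too. Tests are given for differences between cell batches and for other genes.

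HepaRG is an established human liver cell line, used here in its differentiated state. Cells were exposed for 72 h to the hydroxamic acids panobinostat, scriptaid, trichostatin A or vorinostat, the benzamides mocetinostat or tacedinaline, the short-chain fatty acid valproic acid or the cyclic tetrapeptide apicidin, each at 5 concentrations named C1 (lowest) to C5. The 118 libraries formed 40 groups. Of these, 38 held 3 libraries, 1 from each of 3 HepaRG batches, and panobinostat C3 and trichostatin A C4 held 2 libraries, without batch 3. Libraries of scriptaid, tacedinaline and vorinostat came from plate E and the others from plate H. Solvent-control libraries were not used here, so C1 of the same chemical was the reference, and a change already present at C1 would not be seen. Only this line was used, and p-values for concentrations measure the spread between its 3 batches. P-values for batch differences rest instead on the spread left between libraries once group and batch are held. They cover these 3 batches only. Expression was measured with TempO-Seq, in which pairs of probes are ligated on their transcript, amplified and counted. Each probe has its own efficiency, so levels are compared between samples for 1 gene and not between genes. Levels are CPM, counts scaled to a common library size. Total counts per library were between 1061359 and 5250260, with a median of 3702007. Floors cover counting error only.

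Histone deacetylases remove acetyl groups from histone tails. Their inhibition leaves histones acetylated, a state linked to open chromatin and transcription, and HepaRG cells normally express a liver programme. Most of the 10 genes are known from other organs. CCK encodes a peptide hormone of gut and brain, CGA the alpha subunit shared by the glycoprotein hormones, GPR50 an orphan receptor related to the melatonin receptors and CALB1 the calcium buffer calbindin. CLC encodes the Charcot-Leyden crystal protein of eosinophils, MYOZ2 a Z-disc protein of striated muscle, LYZL4 a lysozyme-like protein of the male germ line and CPA4 a secreted zinc carboxypeptidase. C15orf48, named COXFA4L3 in RefSeq, encodes a small mitochondrial protein related to NDUFA4.

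Promoter sequence was taken from RefSeq (GRCh38.p14) for 8 of the 10 genes, and LYZL4 and CALB1 are named only. The lines that follow hold the 200 bases before the annotated start of CGA, PRR20G, CPA4 and C15orf48. They are shown because TATAA stands at nearly the same distance from the start in all 4, while the GC content of the promoters ran from 42.3% in CGA to 73.3% in C15orf48. Capitals mark TATAA on the strand of the gene and, in CGA, the cyclic AMP response element TGACGTCA. The stretches are chr6:87095107-87095306 on the minus strand for CGA, chr3:127288047-127288246 on the minus strand for PRR20G, chr7:130292961-130293160 on the plus strand for CPA4 and chr15:45430410-45430609 on the plus strand for C15orf48.
CGA: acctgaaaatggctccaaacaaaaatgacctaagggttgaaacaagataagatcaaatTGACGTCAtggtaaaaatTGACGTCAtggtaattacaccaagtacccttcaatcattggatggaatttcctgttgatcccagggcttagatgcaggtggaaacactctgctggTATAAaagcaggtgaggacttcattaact
PRR20G: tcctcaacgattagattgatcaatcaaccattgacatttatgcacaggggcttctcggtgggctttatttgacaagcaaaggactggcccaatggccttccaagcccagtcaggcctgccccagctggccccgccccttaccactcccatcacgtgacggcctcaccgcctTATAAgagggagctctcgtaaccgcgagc
CPA4: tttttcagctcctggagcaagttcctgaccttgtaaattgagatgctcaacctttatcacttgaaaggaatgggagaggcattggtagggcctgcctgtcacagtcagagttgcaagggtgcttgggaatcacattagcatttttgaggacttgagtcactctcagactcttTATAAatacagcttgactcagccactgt
C15orf48: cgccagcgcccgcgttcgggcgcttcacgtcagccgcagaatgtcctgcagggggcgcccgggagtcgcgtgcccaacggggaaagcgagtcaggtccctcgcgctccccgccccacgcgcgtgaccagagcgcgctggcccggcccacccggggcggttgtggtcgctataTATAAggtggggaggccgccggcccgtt

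TATAA began 28 bases before the start in CPA4 and C15orf48 and 29 bases before it in CGA and PRR20G. On the strand of the gene, it began 24 to 36 bases before the start in 3.66% of all 35116 promoters of the table, a window set after these positions were seen. On either strand of the whole window, from 250 bases before to 50 bases after the start, TATAA was present in 5 of the 8 genes and in 20.4% of all promoters. CGA held TGACGTCA at 142 and 124 bases before its start, and no other of the 8 genes had it, against 1.85% of all promoters. The ratio of observed to expected CpG in that window was 0.062 in CPA4, 0.098 in CLC, 0.154 in MYOZ2, 0.339 in GPR50, 0.447 in CGA and 0.529 in PRR20G. It was 1.12 in C15orf48, above 98.1% of all promoters. CCK has 2 annotated starts with 0.545 and 0.663. In all, 2 of the 8 genes had a promoter at or above 0.6, against 48.9% of all promoters. The gene counts here took CCK where either of its 2 starts met the condition, whereas the shares count single promoters. These matches of letters describe the sequence and are not mapped binding sites.

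A gene was called silent in a chemical when every C1 library had at most 3 counts. By that measure the label of silent genes fitted some of the 10 better than others. CLC was silent at C1 in all 8 chemicals, with 1 count at most. CGA was silent in 7, LYZL4 in 6, CALB1 and PRR20G in 5, GPR50 in 4 and CCK in 3. MYOZ2 was silent in 1 chemical only, panobinostat, and had up to 20 counts in the other C1 libraries. CPA4 had 12 to 69 counts in the C1 libraries and C15orf48 0 to 48, so both were low rather than silent.

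A gene was called on at a concentration when every library there had at least 10 counts and a higher CPM than every C1 library of that chemical, and its onset was the lowest concentration from which this held up to C5. Of 80 combinations of gene and chemical, 55 were on at C5. As the genes were selected for being high there, this count describes the selection. Of the 80 combinations, 39 were silent at C1. Among all rows silent at C1, 0.0139% to 0.941% per chemical were on at C5. The share over rows of every starting level is not given. Onset lay at C2 in 7 combinations, at C3 in 20, at C4 in 12 and at C5 in 16. Trichostatin A had none, so all 55 lay among the 70 combinations of the other 7 chemicals. Tacedinaline, mocetinostat and apicidin had 9 genes on each, panobinostat and valproic acid 8, scriptaid 7 and vorinostat 5. Seen by gene, CCK, CGA, CALB1, CPA4 and C15orf48 were on in 7 chemicals, CLC and GPR50 in 6, MYOZ2 and PRR20G in 3 and LYZL4 in 2. In 5 further combinations a gene was on at a middle concentration but not at C5, namely MYOZ2 in mocetinostat, tacedinaline and vorinostat, and CLC and GPR50 in vorinostat. In those last 2 cases the batch 1 library at C5 held 7 counts of CLC and 9 of GPR50. PRR20G was not on in vorinostat, where its lowest C5 library had 5.71 CPM and a total count of 1061359. It was on in apicidin, where its lowest C5 library had 3.91 CPM and a total count of 4235836. The mean total count of vorinostat libraries was 3038905 at C1 and 1485592 at C5. The rule is on raw counts, and the part of depth in these cases and in the number of genes on per chemical was not tested.

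**Figure D1:**
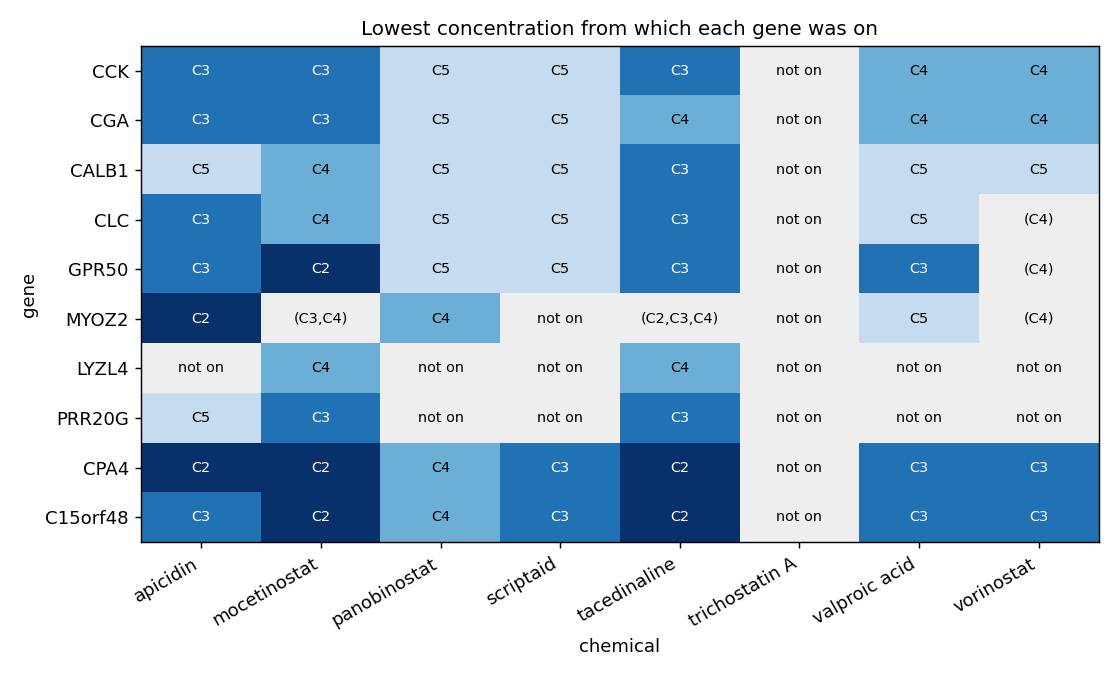
Grid of onset for 10 genes (rows) and 8 chemicals (columns), in which each cell names the lowest concentration from which every library had at least 10 counts and exceeded all C1 libraries up to C5. Levels in brackets were on without lasting to C5. CPA4 and C15orf48 came on at C2 or C3 in 6 chemicals, LYZL4 in mocetinostat and tacedinaline only, and nothing was on in trichostatin A.

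Onset fell at different labelled doses in each chemical. CPA4 was among the first of the 10 genes to come on in each of the 7 chemicals. Its onset was 0.125167 µM of apicidin, 0.531667 µM of mocetinostat, 3.43 µM of tacedinaline, 3.643 µM of vorinostat, 44.46 µM of scriptaid and 0.03963 µM of panobinostat. CCK came on at 0.3755 µM of apicidin, 1.595 µM of mocetinostat, 10.29 µM of tacedinaline, 10.929 µM of vorinostat, 94.5 µM of scriptaid and 0.084 µM of panobinostat. In each of these 6 chemicals CCK thus met the rule 1 or 2 concentrations above CPA4. CPA4 had 12 to 69 counts in the C1 libraries, so it mainly had to exceed these, while CCK also had to reach 10 counts. Onsets therefore depend on the starting level, and no order between genes is read from them. For valproic acid the onset of CPA4 and CCK was at C3 and C4, where the dose labels read 904.3 and 2712.9. The treatment protocol gives numbers 1000 times smaller for this chemical, so the unit of its doses is uncertain. No dose was shared between chemicals, and the values are set side by side without a test. The first CCK probe was used for these counts, a choice made after its values were seen.

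**Figure D2:**
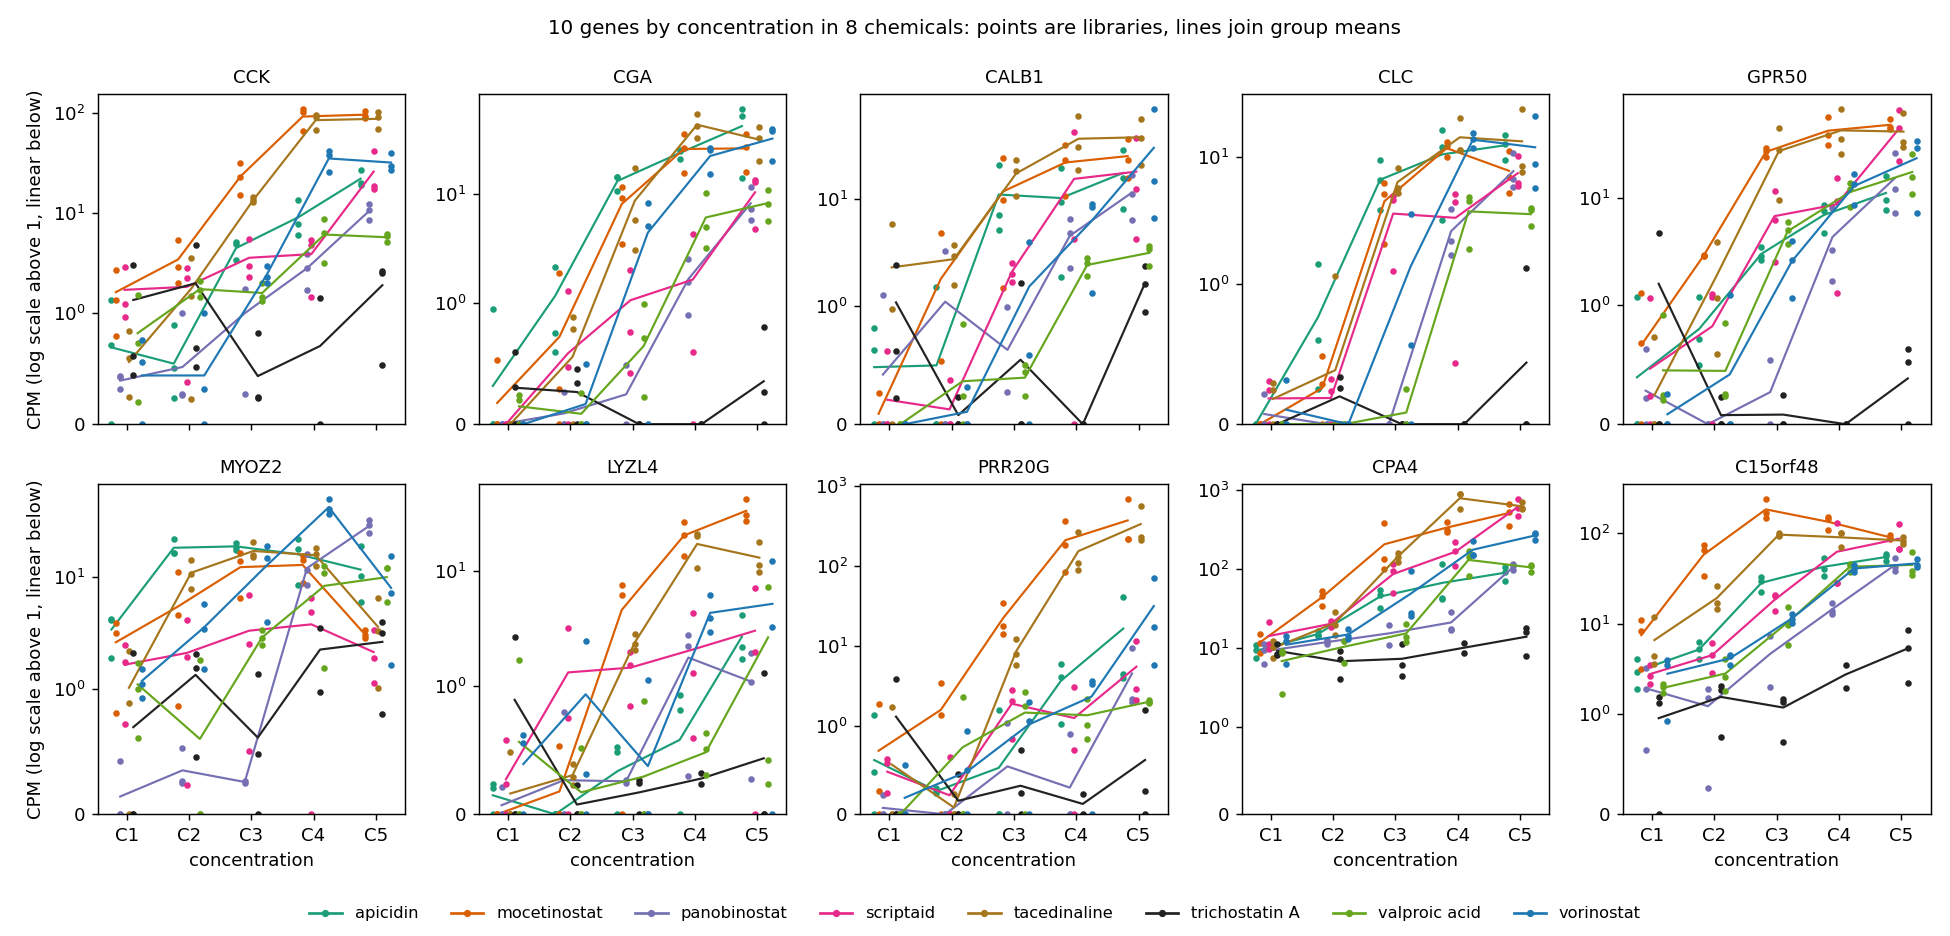
Level of each of 10 genes (CPM, logarithmic above 1 and linear below) against concentration C1 to C5 in 8 chemicals, with a point per library and a line through the group means. PRR20G stands highest in mocetinostat and tacedinaline, MYOZ2 peaks before C5 in several chemicals, and trichostatin A stays low throughout.

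Among the hormone genes, CCK reached its highest levels in the benzamides. At C5 of mocetinostat it stood at 105, 89.3 and 92.7 CPM in batches 1, 2 and 3. At C5 of tacedinaline the values were 69.3, 90.7 and 101 CPM. These libraries overlapped between both benzamides and lay above every library of the next chemical, vorinostat, at its highest concentration for CCK (C4, 25.7 to 41.4 CPM). Scriptaid (25.8 CPM ± 13.6, SD, n = 3) and apicidin (21.9 ± 4.29, SD, n = 3) at C5 followed, and each overlapped with the chemical before it. Panobinostat reached 10.5 CPM ± 1.97 (SD, n = 3) at C5 and valproic acid 6.07 ± 2.77 (SD, n = 3) at C4. Where C1 was silent, the highest group mean was at least 62.9-fold higher in tacedinaline, 31.2-fold in vorinostat and 14.1-fold in panobinostat, against a floor of 3 counts per C1 library. The second CCK probe was weaker, with 291 counts in all libraries against 5645. It exceeded 3 counts in 25 libraries, and all 25 also exceeded 3 counts with the first probe. In mocetinostat at C5 it had 17, 24 and 13 counts, against 2 at most in any C1 library. Both probes thus had their highest group means in mocetinostat and tacedinaline.

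CGA was below 1 CPM in every C1 library, with 4 counts at most. Its highest group means were 43.3 CPM ± 11.1 in tacedinaline C4, 42.0 ± 24.6 in apicidin C5, 32.3 ± 10.6 in vorinostat C5 and 26.2 ± 9.82 in mocetinostat C5 (SD, n = 3 each). These 4 overlapped with their neighbours in the order and stood above scriptaid, valproic acid and panobinostat, whose highest means were 10.4, 8.28 and 8.22 CPM. In apicidin at C5 the libraries held 52.3, 59.9 and 13.9 CPM, so batch 3 was the lowest. Against the floor at C1, CGA was at least 34.6-fold higher in mocetinostat and 31.3-fold higher in tacedinaline. The apicidin libraries thus overlapped with those of both benzamides, which they did not for CCK.

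The receptor gene GPR50 came on at C2 in mocetinostat, where the 3 libraries had 2.95, 2.88 and 2.90 CPM against 0 to 1.32 at C1. It reached 46.9, 44.4 and 55.1 CPM there at C5. The highest means in scriptaid (45.0 CPM ± 22.2, SD, n = 3) and tacedinaline (43.2 ± 22.0, SD, n = 3) overlapped with mocetinostat. Apicidin, with 11.3 CPM ± 4.54 (SD, n = 3) at C5, had the lowest of the highest group means of the 7 chemicals, whereas it stood second in the order for CGA.

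CALB1 reached 38.1 CPM ± 17.7 in tacedinaline, 30.3 ± 34.3 in vorinostat, 25.3 ± 10.8 in mocetinostat and 18.1 ± 17.4 in scriptaid, all at C5 (SD, n = 3 each). The spread between batches was wide. At C5 of vorinostat the 3 libraries had 14.7, 6.59 and 69.6 CPM, and at C5 of scriptaid 4.20, 12.5 and 37.7 CPM. Batch 3 was the highest in both. The order of the chemicals from tacedinaline down to panobinostat was not resolved, as each overlapped with the next.

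For CLC, most chemicals were not resolved from each other. Its highest group means lay between 7.43 CPM in scriptaid and 14.3 CPM in tacedinaline for 6 chemicals, and at 3.71 CPM in valproic acid. All chemicals from tacedinaline to scriptaid overlapped with the next in order, and valproic acid did not overlap with scriptaid. Against silent C1 libraries CLC was at least 17.2-fold higher in apicidin, 15.4-fold in mocetinostat, 12.2-fold in vorinostat, 10.4-fold in panobinostat and 10.3-fold in tacedinaline. Of 5003 probe rows with at most 3 counts in every C1 library of the series, 18 were on at C5 in at least 1 chemical, and CLC alone was on in more than 4. This depends on the limit of 3 counts and on the selection of CLC. CGA was on in 7 chemicals but fell outside these rows, with up to 4 counts in the apicidin C1 libraries.

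MYOZ2 followed another course. In apicidin it was on already at C2, with 16.0, 16.2 and 21.7 CPM against 4.19, 1.90 and 4.08 CPM at C1. In tacedinaline it was 14.1, 7.67 and 10.6 CPM at C2, 15.9, 12.4 and 18.0 CPM at C4 and 6.43, 1.03 and 3.26 CPM at C5. In vorinostat it peaked at C4 with 39.8, 48.3 and 35.6 CPM, the highest group of all, and stood at 1.63, 15.1 and 7.07 CPM at C5. Neither the C4 and C5 libraries of vorinostat nor those of tacedinaline overlapped. In panobinostat it was below 0.6 CPM in every library up to C3 and then 11.49, 15.7 and 8.42 CPM at C4 and 28.5, 31.8 and 24.1 CPM at C5. Panobinostat at C5 lay between vorinostat and apicidin in the order and overlapped with neither.

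LYZL4 and PRR20G had their highest levels in both benzamides. LYZL4 had 20.8, 13.6 and 27.0 CPM at C4 of mocetinostat and 21.0, 10.8 and 20.1 CPM at C4 of tacedinaline, whereas no library of another chemical exceeded 6.18 CPM at C4. At C5 mocetinostat had 30.9, 42.1 and 27.6 CPM, above every library of tacedinaline at its highest group. At C5 vorinostat had 3.27, 0 and 12.4 CPM and valproic acid 0.422, 0.237 and 7.34 CPM, so that single batch 3 libraries there stood above their group mates. The tacedinaline libraries at C4 thus overlapped with those of vorinostat at C5. PRR20G, of a proline-rich family of unknown function, reached 214, 219 and 677 CPM at C5 of mocetinostat and 229, 208 and 562 CPM at C5 of tacedinaline. The next chemical, vorinostat, had 5.71, 16.9 and 71.3 CPM at C5 and did not overlap with either. Apicidin followed with 4.44, 3.91 and 40.8 CPM. Against the floor of tacedinaline at C1, PRR20G was at least 241-fold higher, the highest such bound among the 10 genes. PRR20G belongs to a family of similar genes, and its reads are uncertain in that respect.

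CPA4 and C15orf48 started from measurable levels. CPA4 was at 2.603 to 21.4 CPM in the C1 libraries and reached 780 CPM ± 185 in tacedinaline C4, 603 ± 143 in scriptaid C5 and 507 ± 154 in mocetinostat C5 (SD, n = 3 each), which overlapped with their neighbours. Vorinostat followed at 263 CPM ± 28.5 (SD, n = 3) without overlap, and valproic acid, panobinostat and apicidin lay between 88.6 and 129 CPM. C15orf48 peaked at C3 in mocetinostat with 237, 147 and 168 CPM and then stood at 150, 144 and 109 CPM at C4 and 86.8, 88.0 and 96.0 CPM at C5. In tacedinaline it also peaked at C3, with 99.9, 94.0 and 96.6 CPM, and held 76.2, 82.8 and 90.4 CPM at C5. In apicidin, panobinostat, scriptaid, valproic acid and vorinostat its highest group was C5.

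The genes were selected as higher at C5 than at C1, so a rise at some step between these concentrations was fixed by the choice. Rows that are low elsewhere also pass the count filter only through the group where they are high, and 4 to 11 of the 11 probe rows passed per chemical. The counts of rises per step therefore describe where the increase lay and are no test of it, and the share of all rows that rose is given beside them as scale only. A row was called where edgeR gave an adjusted p below 0.05 together with a change of at least 1.5-fold.

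The step from C2 to C3 raised the dose 3-fold in every chemical, and 29 of 68 combinations of row and chemical rose there by that rule. In mocetinostat 9 rows of 8 genes rose (3.08% of all rows), in tacedinaline 9 genes (3.03%) and in apicidin 6 genes (3.05%). In vorinostat these were C15orf48, CGA and CPA4 (1.64%), in scriptaid CPA4 (0.0391%) and in valproic acid GPR50 (0.0231%). In panobinostat and trichostatin A edgeR called no rising row (0%). Among the 8 and 4 rows that passed the filter there, 1 and 0 were higher at an unadjusted p under 0.05, and DESeq2 called 0 in both. CPA4 in tacedinaline stood at 20.6 CPM at C2 and 141 CPM at C3 (log2 change 2.81, SE 0.2), and C15orf48 at 19.1 and 96.9 CPM (log2 change 2.34, SE 0.249). The replicate batch as a block gave 30 calls and ended that of LYZL4 in mocetinostat. Without batch 2 the 29 calls were 11, and without batch 1 or batch 3 they were 23 or 24.

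At C4 against C3, 19 of 68 combinations rose. The dose step was 3-fold in panobinostat, tacedinaline, trichostatin A, valproic acid and vorinostat, 1.57-fold in mocetinostat, 1.35-fold in scriptaid and 1.33-fold in apicidin. Vorinostat had 7 rising genes (5.54% of all rows), tacedinaline 5 (4.36%), valproic acid 4 (1.04%) and mocetinostat 2 (0.161%). MYOZ2 was the only one in panobinostat, where 3 of 13104 rows rose (0.0229%). It stood at 0.258 CPM at C3 and 11.9 CPM at C4, and its call was lost without batch 1. PRR20G was at 8.53 and 153 CPM in tacedinaline (log2 change 4.22, SE 0.390) and CCK at 2.39 and 34.9 CPM in vorinostat (log2 change 3.85, SE 0.514). Apicidin, scriptaid and trichostatin A had 0 rising calls by edgeR among all rows (0%). Of the rows of the 10 genes that passed the filter there, 2, 3 and 0 were higher at an unadjusted p under 0.05, and DESeq2 called 0. Without batch 1 the 19 calls were 12.

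The step from C4 to C5, added after the data were seen, shares its C5 libraries with the comparison that selected the genes, so its rises too are given as counts only. In all, 8 tests of 68 rose, 3 in scriptaid, 2 each in panobinostat and vorinostat and 1 in tacedinaline. The background of rising rows was 8.71%, 0.488%, 5.92% and 0.321% in these 4 chemicals, 0.0551% in apicidin and 0% in mocetinostat, trichostatin A and valproic acid, and the 8 calls were 5 without batch 1 or without batch 3. In the chemicals without a rise, apicidin had 2 rows higher at an unadjusted p under 0.05 and the other 3 had 0, with 0 calls by DESeq2. MYOZ2 gave the only 2 falls, opposite to the direction of the selection. In vorinostat the step began at the highest group of MYOZ2, which favoured a lower next group. The adjusted p-values of both falls are therefore a description and no independent test. MYOZ2 had at most 9 counts in the C1 libraries of both chemicals and passed the filter through higher groups. It fell in vorinostat from 41.2 to 7.92 CPM (log2 change -2.22, SE 0.498, edgeR adjusted p = 0.00155) and in tacedinaline from 15.5 to 3.57 CPM (log2 change -2.15, SE 0.535, edgeR adjusted p = 0.0191). The falling background was 10.8% in vorinostat and 1.83% in tacedinaline. It was 0.260% in apicidin, 0.0536% in mocetinostat, 2.08% in panobinostat, 16.5% in scriptaid and 0% in trichostatin A and valproic acid. In mocetinostat MYOZ2 was at 12.7 CPM at C4 and 3.07 at C5, with a log2 change of -2.01 (edgeR adjusted p = 0.512), and the decline of C15orf48 there did not pass either (log2 change -0.55, edgeR adjusted p = 0.932). The fall in tacedinaline was lost without batch 2 (edgeR adjusted p = 0.234) or without batch 3 (edgeR adjusted p = 0.0801).

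Differences between the 3 HepaRG batches did not enter the selection. In a fit of all libraries that held the 40 groups, 2 of the 11 rows differed between batches, against 2.76% of 15632 rows tested. PRR20G was higher in batch 3 than in batch 1 by 1.67 on the log2 scale (edgeR adjusted p = 1.63e-09) and CALB1 by 1.27 (edgeR adjusted p = 0.000101). Batch 2 differed from batch 1 by 0.09 for PRR20G and -0.18 for CALB1. Over the 14 groups at C4 and C5 of the 7 chemicals other than trichostatin A, batch 3 was the highest for PRR20G in 11 groups and for CALB1 in 12. GPR50 was higher in batch 3 by 0.76 and did not pass (edgeR adjusted p = 0.0556), but passed with DESeq2 (adjusted p = 0.0159) and without the filter on low counts (edgeR adjusted p = 0.011). CGA ran the other way in those groups and was lowest in batch 3 in 9 of 14, with a log2 difference of -0.50 (edgeR adjusted p = 0.288). CCK, CPA4 and C15orf48 differed by 0.20, -0.08 and 0.12 between batches 3 and 1 (edgeR adjusted p = 0.787, 0.911 and 0.780). Without batch 3 none of the 11 rows passed (0 calls), with edgeR adjusted p-values of 0.945 for PRR20G and 0.923 for CALB1.

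**Figure D3:**
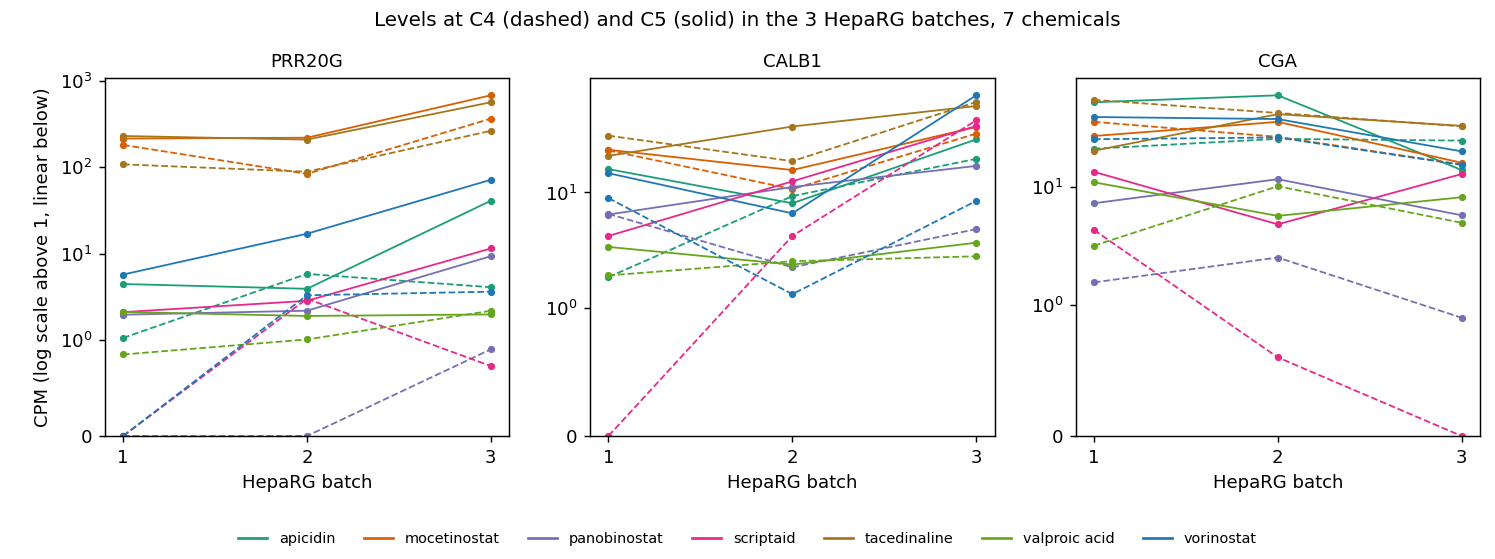
Levels of PRR20G, CALB1 and CGA (CPM, logarithmic above 1 and linear below) in HepaRG batches 1, 2 and 3, where each line is a group at C4 (dashed) or C5 (solid) of 7 chemicals. PRR20G was highest in batch 3 in 11 of 14 groups and CALB1 in 12 of 14, whereas CGA was lowest in batch 3 in 9 of 14.

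In trichostatin A none of the 10 genes was on. At C5, CPA4 had 17.6, 15.8 and 7.87 CPM against 8.23, 8.01 and 11.0 CPM at C1, and C15orf48 5.34, 8.41 and 2.203 CPM against 1.33, 1.54 and 0 CPM. The C1 library of batch 3 stood apart. It had 16 counts of GPR50, 13 of PRR20G, 10 of CCK, 9 of LYZL4, 8 of CALB1 and 7 of MYOZ2, where the other 2 C1 libraries had 0 to 2 counts of each. Its median Spearman correlation with the other C1 libraries of the series was 0.889, and the next lowest C1 library had 0.942. Its summed level of hepatocyte markers was 14010 CPM, against 39750 to 72620 CPM in the C1 libraries of the other 7 chemicals. Without this library the number of combinations that were on remained at 55.

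Close relatives of the 10 genes, listed by family, were tested at C5 against C1. The list held 58 rows and gave 99 tests in 8 chemicals, of which 13 rose and 24 fell, with 13.1% rising and 24.2% falling. Only 99 of 464 combinations of row and chemical passed the filter. A relative silent at C1 was tested only where some higher concentration had more counts. The shares are therefore not read against the 11.6% that rose and 13.4% that fell over all rows and chemicals. Rises called for relatives silent at C1, or with few counts there, describe their levels and are no test. By chemical, the rising background was 13.8% in apicidin, 14.8% in mocetinostat, 6.77% in panobinostat, 12.8% in scriptaid, 18.7% in tacedinaline, 4.84% in valproic acid, 22.7% in vorinostat and 0% in trichostatin A. The falling background in the same order was 15.0%, 15.7%, 9.46%, 17.0%, 20.1%, 6.22%, 24.9% and 0.0154%. The median log2 change of the relatives tested was between -1.17 in vorinostat and 0.28 in apicidin, and that of all rows tested between -0.002 and 0.084. Without batch 2 the 13 rises were 8. No relative of GPR50 or MYOZ2 passed the filter, and of 13 tests of LYZL4 relatives edgeR and DESeq2 called 0, with 1 higher and 1 lower at an unadjusted p under 0.05.

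GAST encodes gastrin, the other peptide hormone of the CCK family. It passed the filter only in mocetinostat and tacedinaline, through libraries above C1, so its levels are given without a test. It had 0 counts in the C1 libraries of both. At C5 it had 34, 73 and 114 counts in mocetinostat and 32, 20 and 68 counts in tacedinaline, at least 27.2-fold and 12.1-fold higher against the floor of 3 counts per C1 library. Elsewhere at C5 single batch 3 libraries held 21 counts in vorinostat, 13 in apicidin and 10 in scriptaid, with 0 in batches 1 and 2. CGB8, of the chorionic gonadotropin beta cluster whose copies are nearly identical, rose in mocetinostat and tacedinaline by 1.67 (SE 0.593) and 2.03 (SE 0.668) on the log2 scale. The other calcium buffers of the CALB1 family moved apart. CALB2, which encodes calretinin, rose in 5 chemicals, from 0.371 to 13.1 CPM in scriptaid and from 0.714 to 15.3 CPM in valproic acid. C1 of scriptaid was silent. In vorinostat CALB2 had 2, 4 and 16 counts at C5 against 6, 1 and 1 at C1, so that call rests mainly on the batch 3 library. SCGN, which encodes secretagogin, fell in 7, from 208 to 4.54 CPM in vorinostat (log2 change -5.39, SE 0.307, edgeR adjusted p = 4.31e-16). CALB2 was at 4.298 CPM at C5 of mocetinostat, against 2.00 at C1, without a call, although CALB1 was on there.

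Among the galectins, the family of CLC, LGALS13 had 0 counts at C1 and 13, 12 and 7 counts at C5 of mocetinostat, the only chemical in which it passed the filter. LGALS4, a galectin of the gut, fell in 7 chemicals, and LGALS1 fell in tacedinaline and vorinostat. CPB2, the carboxypeptidase that the liver secretes into plasma, fell in 6 chemicals, whereas CPA4 was on in the same ones. It went from 602 to 22.4 CPM in tacedinaline (log2 change -4.67, SE 0.195, edgeR adjusted p = 4.57e-23). CPA6 fell in tacedinaline (edgeR adjusted p = 0.00886), with 7, 13 and 11 counts at C1 and 0, 1 and 0 counts at C5, too few for the size of the fall. PRR20B rose in mocetinostat from 1.17 to 9.01 CPM and in tacedinaline from 0.0987 to 3.01 CPM, and reads may be shared within its family. NDUFA4, the relative of C15orf48, rose in vorinostat by 0.72 (SE 0.305) and was not called in the other 7 chemicals.

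**Figure D4:**
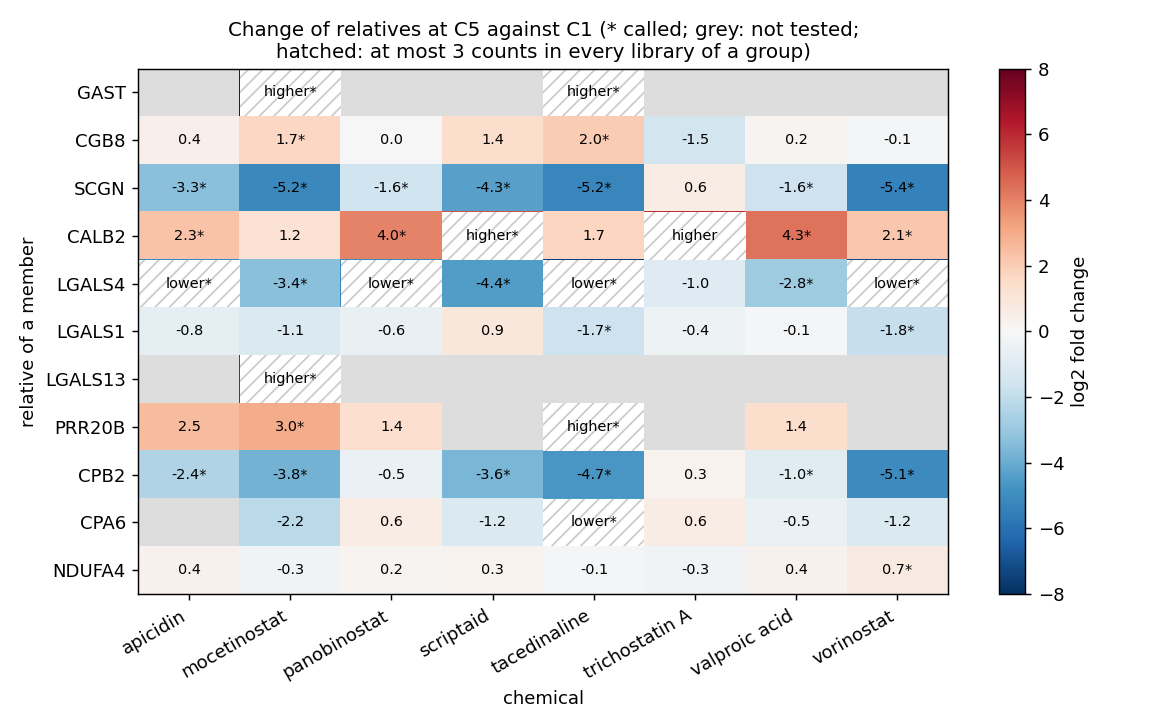
Change at C5 against C1 (log2 scale, colour and printed value) of 11 relatives of the selected genes in 8 chemicals, with called values starred and rows that did not pass the count filter in grey. Hatched cells give the direction alone, since every library of one group had at most 3 counts. GAST passed the filter in mocetinostat and tacedinaline only, SCGN and LGALS4 fell in 7 chemicals, and CALB2 rose in 5, in vorinostat mainly through the batch 3 library.

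Other genes of the tissues in which the 10 are known, from lists drawn up with earlier results of these data known, were tested in the same way. These lists held 107 rows and 856 combinations with a chemical, of which 126 passed the filter. Of these tests 35 rose and 7 fell. The share of 27.8% that rose is not set against the 11.6% of all rows. A gene silent at C1 is tested only where some higher concentration had more counts. For that reason, rises called here and in the next paragraph are no test where C1 was silent or had few counts. Such rises describe levels. This holds for NEFL, SLC17A6, SYP, TNNI3, NR5A1, PSG1, SCG2 and RNASE2 in some or all of the chemicals in which they were called. Of the neuroendocrine list, SCG2, which encodes a secretory granule protein, rose in 5 chemicals, from 1.54 to 93.5 CPM in mocetinostat (log2 change 6.00, SE 0.465) and from 1.89 to 64.4 CPM in tacedinaline. SYP, the synaptic vesicle protein synaptophysin, rose in 4 chemicals with one probe and in 3 with the other. Of the neuronal list, NEFL, a neurofilament subunit, rose in 4 chemicals and had 72, 114 and 101 counts at C5 of mocetinostat against 0 to 2 at C1. SLC17A6, a vesicular glutamate transporter, rose in 4 chemicals. MAP2 rose in apicidin and fell in scriptaid.

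Of the 19 rows of the striated muscle list, 0 to 3 passed the filter per chemical, and TNNI3 alone was called. TNNI3, the troponin I of heart muscle, rose in 5 chemicals and had 17, 23 and 25 counts at C5 of vorinostat against 0 to 3 at C1. MYOZ2 was not on at C5 in 4 of those 5, mocetinostat, scriptaid, tacedinaline and vorinostat. Of the 11 rows of the eosinophil list, 1 to 3 passed the filter per chemical, and RNASE2 alone was called. RNASE2, a ribonuclease of eosinophils, rose in 5 chemicals, from 3.23 to 26.9 CPM in tacedinaline (log2 change 2.84, SE 0.490). Its C1 libraries there held 0, 8 and 30 counts. Of 6 leukocyte markers, 4 had at most 3 counts in every C1 and C5 library, among them PTPRC, CD3E and LYZ. The other 2, CD68 and CD14, passed the filter in every chemical. Both fell in tacedinaline and 1 of them in mocetinostat, and the summed level of the list was 24.7 to 122 CPM in the C1 libraries and 15.3 to 53.1 CPM at C5. Of the pituitary list NR5A1 alone was called, in mocetinostat, with 2.30 CPM at C5. Of the placenta list PAPPA fell in 4 chemicals, and PSG1 and CYP19A1 rose in panobinostat. CYP19A1 fell in mocetinostat. Of the testis and germ cell list 0 of 13 tests were called by edgeR or DESeq2, and 0 had an unadjusted p under 0.05, although LYZL4 was on in mocetinostat and tacedinaline.

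The liver markers moved with all of this. All 12 hepatocyte rows were tested, and 11 or 12 of them fell in each of the 7 chemicals other than trichostatin A, where 0 fell by edgeR or DESeq2, also at an unadjusted p under 0.05. Their summed level was 39750 to 72620 CPM in the C1 libraries of these 7 chemicals and 3104 to 30440 CPM at C5. In the C1 libraries of trichostatin A it was 55880, 59950 and 14010 CPM in batches 1, 2 and 3. The batch 3 library thus lowered the reference there and widened its spread, so a fall could be missed. Of 8 biliary rows, 4 passed the filter in each of these 7 chemicals and 5 in trichostatin A. Of those, 3 rose in tacedinaline, where 18.7% of all rows rose, 2 each in apicidin (13.8%) and mocetinostat (14.8%), and 1 each in panobinostat (6.77%), scriptaid (12.8%), valproic acid (4.84%) and vorinostat (22.7%). In trichostatin A edgeR and DESeq2 called 0 of the 5, with 1 higher at an unadjusted p under 0.05 by edgeR. In bulk lysates, fewer cells of a type and less RNA per cell cannot be told apart. The part of the loss of hepatocyte RNA in the levels of the 10 genes was not tested.

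Each of the 10 genes was set against the 2 protein-coding genes with probe rows on either side of it. CCK and LYZL4 are next to each other on chromosome 3 in this order, and both were on in mocetinostat and tacedinaline. Leaving out the selected genes themselves, 41 rows of neighbours gave 184 tests, of which 19 rose and 30 fell. The shares were 10.3% and 16.3%. They are not read against all rows, since 184 of 328 combinations passed the filter. ULK4, near CCK, rose in 6 chemicals, from 58.9 to 272 CPM in mocetinostat (log2 change 2.29, SE 0.669, edgeR adjusted p = 0.0158). PLXNA1, near PRR20G, rose in mocetinostat from 8.07 to 48.4 CPM (log2 change 2.67, SE 0.376, edgeR adjusted p = 5.69e-05), in tacedinaline from 11.9 to 33.6 CPM and in scriptaid from 12.7 to 24.2 CPM. USP53, near MYOZ2, rose in panobinostat from 34.3 to 154 CPM (log2 change 2.15, SE 0.253, edgeR adjusted p = 3.08e-06) and in valproic acid, and fell in scriptaid. It was not called in the other 5 chemicals, with a log2 change of 0.57 in apicidin, the third chemical in which MYOZ2 was on at C5. MYOZ2 was not on at C5 in scriptaid nor in the other 4 chemicals without a call. GATM, near C15orf48, encodes an enzyme of creatine synthesis and fell in 7 chemicals, from 172 to 4.96 CPM in tacedinaline, where C15orf48 was on. NBN and DECR1, near CALB1, fell in 6 and 5 chemicals.

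The genes with the most similar course over the 40 group means, by Pearson correlation of log2 CPM among 14842 rows, are given as a description. For CGA these were KLF5 (r = 0.970), CLC (0.963) and LOC339862 (0.960), and for CALB1 they were CLC (0.933), VCX (0.930) and LOC339862. CLC was nearest to CGA, then VCX3B and LOC339862. GPR50 and CPA4 were nearest to each other (0.958), followed by NFE2L3 and VCX3B for GPR50 and by HABP4 and ARG2 for CPA4. CCK was nearest to VCX (0.952), KERA and PGM2L1, and C15orf48 to SVOPL (0.941), GPR50 and NFE2L3. PRR20G was nearest to S100A7A (0.956), CEACAM6 and S100A7, and LYZL4 to MYCT1 (0.939), PRR20G and ACTBL2. MYOZ2 had the weakest partners, with OGFRL1 at 0.878, SVEP1 at 0.839 and DCBLD1 at 0.824. The group means share libraries, batches and the concentration series, so a high r is common among genes that respond to the chemicals.

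For scale, the rows silent at C1 numbered 7207 to 7995 per chemical. Those on at C5 numbered 70 in mocetinostat, 56 in tacedinaline, 38 in scriptaid, 37 in apicidin, 31 in vorinostat, 24 for panobinostat, 20 for valproic acid and 1 for trichostatin A, or 0.0139% to 0.941% of the silent rows. The sum of 277 rested on the definition. It was 680 at a minimum of 5 counts, 116 at 20 counts and 64 when silent meant 0 counts. With 1 batch left out it was 550 to 627. The opposite change, from at least 10 counts in every C1 library to at most 3 in every C5 library, occurred in 260 rows in vorinostat, 163 in scriptaid, 131 in mocetinostat, 100 in tacedinaline, 55 in apicidin, 20 for panobinostat, 18 for valproic acid and 1 in trichostatin A. These limits are on raw counts, and depth fell unequally between C1 and C5. The mean total count went from 3038905 to 1485592 in vorinostat, from 3646506 to 2325353 in scriptaid, from 4510226 to 3462585 in mocetinostat and from 2950850 to 2110830 in tacedinaline, but from 3832638 to 3725492 in trichostatin A. The part of depth in the order of these counts was not tested.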

How the data were processed

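Expression was measured by TempO-Seq with a whole-transcriptome probe panel in lysates of HepaRG cells. The authors deposited raw counts per probe row and library. The submitters' processing notes name bcl2fastq 2.20.422, fastp 0.23.2, STAR 2.7.10b and DESeq2 1.38.0, without their roles, and the genome build is not given in the sources used here. Of 22069 rows, 1 without values in 88 libraries was left out. Libraries were grouped by the labels.

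For each chemical, its libraries were fitted with edgeR 4.0.16 (R 4.3.3): filterByExpr, TMM scaling and the quasi-likelihood test, with Benjamini-Hochberg adjustment over all rows tested. Called rows had an adjusted p below 0.05 and changed at least 1.5-fold. HepaRG batches were tested in 1 edgeR fit of all libraries with the 40 groups, by adjusted p alone. DESeq2 1.42.0, RLE size factors, no filter on low counts, the batch as a block and leaving out each batch were alternatives. The fits were tested on simulated data. A silent library had at most 3 counts and one that was on at least 10. The floor was 3 counts per library.

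The members and lists were chosen with earlier results of these data known. Named were all members, up to 3 called features per list (those called in the most chemicals first) and, for each member, the 3 features with the highest Pearson correlation of log2 CPM (prior count 2) over the group means. The comparison of C5 with C4, the motifs and the TATAA window were added after seeing the data. So was the count of combinations that were on without 1 trichostatin A library, and no fit was run without it. The replicate numbers are batches by the labels. As a check, each library's deviation from its group was correlated between groups of a chemical, and the median was 0.0362 for 232 same-batch pairs and -0.0154 for 464 others.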

Additional observations from a re-analysis of the deposited data

Results flagged for a closer look

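The levels of PRR20G and CALB1 differed between the HepaRG batches when the 40 groups were held in the fit (edgeR adjusted p = 1.63e-09 for PRR20G and 0.000101 for CALB1). Averaged over the 14 groups at C4 and C5 of the 7 chemicals other than trichostatin A, PRR20G stood at 53.5, 45.7 and 144 CPM in batches 1, 2 and 3, and CALB1 at 11.6, 10.2 and 30.1 CPM. The PRR20G averages come mainly from mocetinostat and tacedinaline. Their group means were 153 to 370 CPM, against at most 31.3 CPM in vorinostat, the next chemical. The cause of the difference was not tested.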

How the results depend on the processing

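No result changed direction under the alternatives run. The number of the 11 rows rising was 29 at C3 against C2, 19 at C4 against C3 and 8 at C5 against C4. With 1 batch left out these were 11 to 24, 12 to 16 and 5 to 7, and the 2 falls at C5 against C4 were 1 to 2. The 2 rows that differed between batches were 0 to 2. Of the list counts, the 13 rising relatives were 8 to 10. The 55 combinations that were on were 63 at a minimum of 5 counts, 47 at 20 counts and 55 to 61 with 1 batch left out. Silent rows on at C5 numbered 277, and were 680 at a minimum of 5 counts, 116 at 20 counts, 64 when silent meant 0 counts and 550 to 627 with 1 batch left out, where fewer libraries had to pass. With the replicate batch as a block the step counts were 30, 19 and 9, relatives rose in 10 and fell in 23 tests, and of the single calls the block ended that of LYZL4 in mocetinostat (C3 against C2, log2 change 4.32, edgeR adjusted p = 0.0643). With DESeq2 the rises at C5 against C4 of PRR20G in tacedinaline (adjusted p = 0.431) and CALB1 in vorinostat (adjusted p = 0.238) were lost. Of 58 single calls, 17, 26 and 16 were lost without batch 1, 2 and 3. The causes were not tested, and 3 libraries per group and few counts at C1 limit the precision.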
